A study of Mus musculus with 8 samples.

Results

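The RGK proteins Rrad, Gem, Rem1 and Rem2 form a small branch of the Ras superfamily of GTP-binding proteins. They were examined in hypocretin neurons of the mouse by translating ribosome affinity purification, in which a transgene tags the ribosomes of 1 cell type and the RNA bound to them is pulled down. The family was chosen by the strongly higher value of Rrad in the immunoprecipitate, and its members are all probe sets whose single platform gene symbol is 1 of the 4 names. Of the 18193 genes named on the array this gave 3, by 4 probe sets: 1 for Rrad, 1 for Gem and 2 for Rem2. Rem1 had 0 probe sets under this rule and was not analysed here. Because the members were chosen on the contrast between the fractions, their differences between fractions are given as a description, without a test.

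4 immunoprecipitates, which hold the RNA of the tagged ribosomes, and the 4 unbound fractions of the same preparations were hybridised to 1 mouse array each. All 8 came from transgenic adults of the line Hcrt JD218, 6 to 12 weeks old, of both sexes and of a mixed Fvb and c57/bl6j background. 5 mice were pooled for each preparation, and the dissected tissue was the diencephalon with thalamus and hypothalamus. The unbound fraction stands for the whole tissue and carries the same transgene, and the tag marks whichever cells the Hcrt transgene drives. A precipitate from non-transgenic mice was not among the arrays. The fractions differ in cell type and in ribosome binding at once. Fewer cells of a type and less RNA per cell cannot be told apart in such bulk samples.

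RGK proteins bind the beta subunits of high-voltage-activated calcium channels and lower the calcium current through them. Gem and Rrad are also known to act on the cytoskeleton, and family members bind 14-3-3 proteins. Rrad is best known from skeletal and heart muscle, Gem as a gene induced by mitogens, and Rem2 as a neuronal gene induced by activity. Unlike most Ras proteins, they lack the lipid anchor site at the carboxyl terminus.

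Values are log2 levels as deposited after GCRMA, with 1 constant per fraction subtracted so that spiked hybridisation controls were equal. A linear value of 50, which is 5.64 on the log2 scale, was used as the minimum for a measured level, and a probe set was tested when it reached 50 on at least 4 arrays. Hcrt, the gene that names the transgene, stood at 15.36 ± 0.17 over the immunoprecipitates and at 10.33 ± 0.55 over the unbound arrays (SD, n = 4 each). The 4 markers taken for hypocretin neurons, Hcrt, Pdyn, Nptx2 and Lhx9, reached 50 on every array of both fractions. Their means were higher in the immunoprecipitate, by 2.08 to 5.02 on the log2 scale. All of the 7 astrocyte markers and all of the 6 oligodendrocyte markers with a probe set had a lower mean there. Oligodendrocyte signal remained, with a summed log2 level of 14.1 to 15.22 on the immunoprecipitate arrays and 16.22 to 16.53 on the unbound arrays. Of 17865 tested probe sets, 4.88% were called higher and 45.1% lower in the immunoprecipitate. A call needed an adjusted p from limma under 0.05 and a change of 2-fold or more. The median tested gene differed by -0.85 on the log2 scale, by -0.03 with each array centred on its median, by -0.04 after quantile normalization and by -2.81 on the poly-A controls. Of all calls 9.76% were higher on the main scale, 42.7%, 45.4% and 0.738% on those other scales.

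Rrad was abundant in the precipitated RNA. On the immunoprecipitate arrays of replicates 1, 2, 3 and 4 its log2 level was 9.43, 10.56, 10.87 and 11.05. On the unbound arrays of the same replicates it was 6.18, 6.31, 6.60 and 7.51. The fractions did not overlap: the lowest immunoprecipitate lay 1.92 above the highest unbound array, and all 8 arrays were above the minimum. Replicate 1 was the lowest of the immunoprecipitates, and replicate 4 stood above the other unbound fractions.

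The mean level of Rrad was 10.48 ± 0.73 over the immunoprecipitates and 6.65 ± 0.60 over the unbound arrays (SD, n = 4 each). The log2 difference was 3.83 ± 0.41 (SE of the fit), or 14.2-fold. Within the preparations of replicates 1, 2, 3 and 4 the fold was 9.50, 19.0, 19.3 and 11.6. It was higher in 4 of 4 pairs. By size of the difference Rrad took rank 39 among 10398 tested genes, where 0.365% of genes lay above it. The log2 difference was 4.64 with median centring, 4.82 after quantile normalization and 1.86 on the poly-A controls, so its direction held on each scale.

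Gem went the same way at a much dimmer signal. Its log2 level on the immunoprecipitate arrays of replicates 1 to 4 was 5.22, 5.57, 5.75 and 7.42. On the unbound arrays it was 4.71, 3.29, 4.04 and 3.72. All unbound arrays and 2 of the 4 immunoprecipitate arrays were below the minimum, so the probe set was not tested. The arrays of the fractions did not overlap, with a gap of 0.52, but most of the difference lay among values under the minimum. Of tested probe sets, which do not include that of Gem, 6.85% had all immunoprecipitate arrays above all unbound arrays. With the unbound values raised to the minimum, the mean of Gem was 1.26-fold higher in the immunoprecipitate. That mean holds 2 arrays that were themselves under the minimum, so 1.26 is no firm lower bound.

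Means for Gem were 5.99 ± 0.98 and 3.94 ± 0.60 on the log2 scale (SD, n = 4 each), a difference of 2.05. The difference within a preparation ran from 0.52 in replicate 1 to 3.70 in replicate 4. The immunoprecipitate of replicate 4 was the single one well above the minimum. On the poly-A controls the difference of the means was 0.087, and after quantile normalization it was 3.14.

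Rem2 lay on the other side. Its brighter probe set had a log2 level of 5.58, 7.16, 5.90 and 5.36 on the immunoprecipitate arrays of replicates 1 to 4. On the unbound arrays it was 7.56, 8.21, 7.56 and 7.56. Every unbound array was above every immunoprecipitate array, by a gap of 0.40, and 2 of the 4 immunoprecipitates were below the minimum. The deposited unbound values of replicates 1, 3 and 4 were identical to the last digit. Such equality on 3 or 4 arrays occurred for 56 of 16980 probe sets at or above 50 on all unbound arrays. The SD of 0.33 in that fraction therefore rests on few distinct values.

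The mean level of this Rem2 probe set was 6.00 ± 0.81 over the immunoprecipitates and 7.72 ± 0.33 over the unbound arrays (SD, n = 4 each). The log2 difference was -1.72 ± 0.39 (SE of the fit). With values under the minimum raised to it, Rem2 was at least 3.11-fold lower in the immunoprecipitate. It was lower in every pair, by 3.95-, 2.06-, 3.15- and 4.58-fold for replicates 1 to 4. The difference was 0.87 below that of the median gene. It was -0.91 with median centring and -0.55 after quantile normalization, under 2-fold on both scales, and -3.69 on the poly-A controls.

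The dimmer Rem2 probe set stayed under the minimum on all 8 arrays and was not tested. Its log2 level was 2.41, 3.53, 3.02 and 2.20 on the immunoprecipitate arrays and 3.86, 5.63, 5.41 and 4.42 on the unbound arrays, for replicates 1 to 4. These values did not overlap, but all of them lay under the minimum. On the immunoprecipitate array of replicate 4, 0% of probe sets lay below this one. Of tested probe sets, which do not include it, 50.1% had all immunoprecipitate arrays below all unbound arrays. No fold is given because both fractions were below the minimum.

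Of the 4 member probe sets, 2 passed the filter on low values. By the thresholds of a call 1 of them, that of Rrad, was higher and 1, that of Rem2, was lower, where 4.88% and 45.1% of all tested probe sets were called. For members chosen on this contrast such a call is a description and not a test. All immunoprecipitate arrays lay above all unbound arrays for Rrad, as they did for 6.85% of tested probe sets, and below them for the tested Rem2 probe set, as they did for 50.1%. The rule used this contrast, and nothing further is read from these counts.

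**Figure D1:**
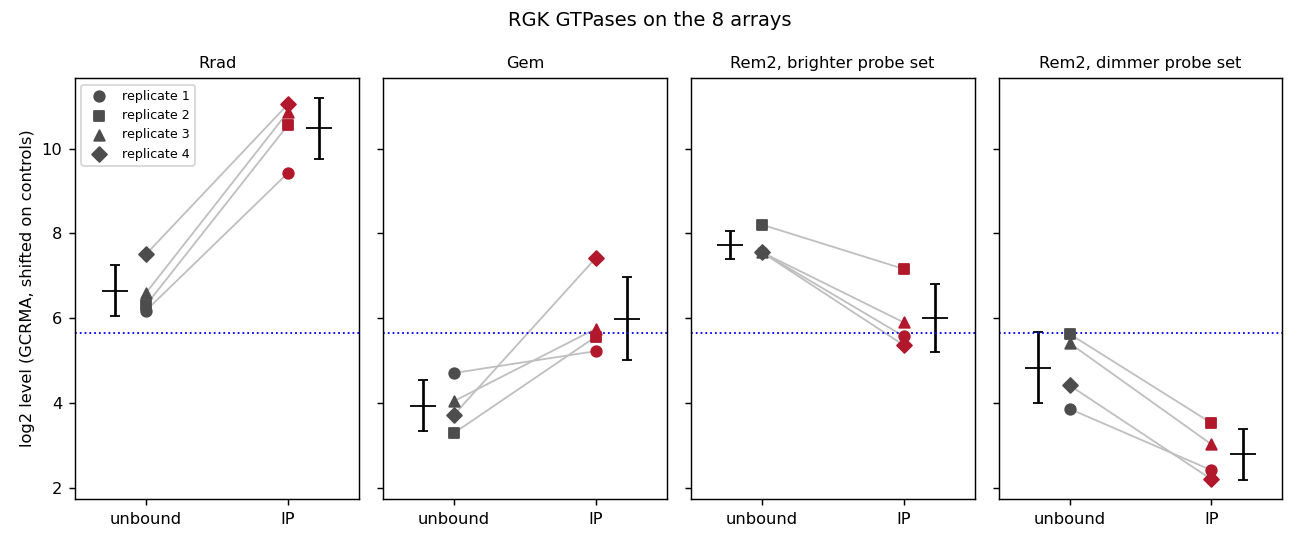
Log2 level of the 4 RGK probe sets (vertical axis) in the unbound fraction and the immunoprecipitate (IP), 1 symbol per array with grey lines joining the fractions of a preparation; horizontal bars with whiskers are means ± SD (n = 4) and the dotted line is the minimum of 5.64. Rrad lies above the line on all arrays and between 9.43 and 11.05 in the immunoprecipitate, Gem crosses the line on 2 immunoprecipitate arrays, and both Rem2 probe sets are lower in the immunoprecipitate.

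Within each fraction the arrays fell in the same order for Rrad and for Hcrt. The log2 level of Hcrt was 15.10, 15.39, 15.43 and 15.50 on the immunoprecipitate arrays of replicates 1 to 4, and 9.77, 10.10, 10.40 and 11.06 on the unbound arrays. Rrad spanned 1.62 on the log2 scale across the immunoprecipitates, where Hcrt spanned 0.40. Hcrt lay near the top of the scale there, with 48 to 100 probe sets above it on these arrays and the brightest at 16.23 to 16.47, and whether this narrowed its span was not tested. Across the unbound fractions the spans were 1.33 for Rrad and 1.29 for Hcrt. The order of Hcrt in both fractions was shared by 154 of the other 10397 tested genes, 1.48%, and by 21 of 492 other genes called higher, 4.27%. Gem shared the order over the immunoprecipitates, as did 1055 of 10397 tested genes, 10.1%. Of its 4 values there 2 were under the minimum. Gem did not share the order over the unbound fractions, and neither Rem2 probe set shared it in either fraction. The order was noticed after the values were seen.

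Other measures also differed between these arrays. The 3' signal of Gapdh exceeded its 5' signal by 4.50 on the immunoprecipitate array and by 3.36 on the unbound array of replicate 4, and by 2.12 to 2.31 and 1.94 to 2.08 on the other arrays of these fractions. For Actb replicate 4 was also the highest of each fraction but by little, with 4.05, 3.14, 3.53 and 4.11 on the immunoprecipitate arrays of replicates 1 to 4 and 3.01, 3.29, 3.45 and 3.80 on the unbound arrays. The summed astrocyte signal was lowest in the immunoprecipitate of replicate 4, at 12.56, against 13.55 to 14.05 on the others. The part of RNA integrity and of glial RNA in the levels of Rrad and Gem was not tested.

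**Figure D2:**
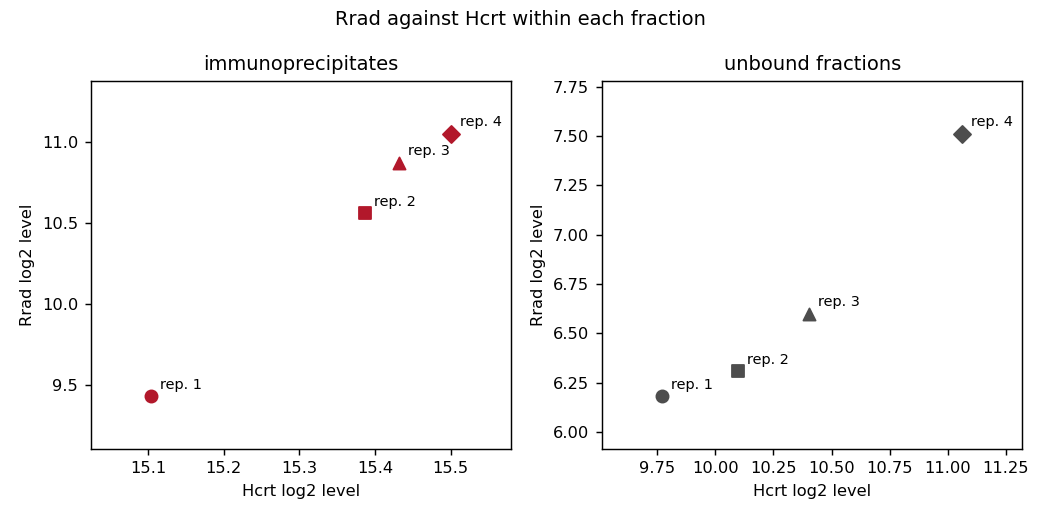
Log2 level of Rrad (vertical axis) against that of Hcrt (horizontal axis) on the 4 immunoprecipitate arrays (left) and the 4 unbound arrays (right), labelled by replicate; the axes differ between panels. Replicate 1 is lowest and replicate 4 highest for both genes in both fractions, with Rrad at 9.43 and 11.05 on the left and at 6.18 and 7.51 on the right.

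Rrad is a gene of muscle, so markers of muscle were set beside it. Of 8 markers of skeletal and heart muscle 6, Ckm, Mylpf, Tnnt3, Tnni2, Myh6 and Actc1, were under the minimum on all arrays of both fractions. The summed log2 level of the 8 markers ran from 9.09 to 9.91 over the immunoprecipitates and from 8.31 to 9.25 over the unbound arrays. Acta1, the actin of skeletal muscle, was the 1 marker above the minimum on every immunoprecipitate array, with 8.84, 9.51, 9.55 and 9.83 on those of replicates 1 to 4. Acta1 stood at 6.23, 7.41, 7.98 and 6.98 on the unbound arrays. It was 4.86-fold higher in the immunoprecipitate (log2 difference 2.28 ± 0.38 SE, limma adjusted p = 0.00052), but on the poly-A controls it differed by 0.32 (limma adjusted p = 0.43). The other marker tested, Tnnt2, was called lower.

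Vascular and connective tissue cells, in which Gem and Rrad can also be expressed, had lower summed marker signal in the immunoprecipitate. All 6 endothelial markers with a probe set were under the minimum on all immunoprecipitate arrays, but Pecam1, Flt1, Tek and Kdr were so on all unbound arrays too, while the other 2, Cldn5 and Slco1a4, were above it there. The summed log2 level ran from 5.62 to 6.14 over the immunoprecipitates and from 7.41 to 8.15 over the unbound arrays. For 6 mural cell markers it was 7.81 to 9.81 and 10.26 to 11.05, and for 5 fibroblast markers 5.61 to 7.11 and 9.61 to 9.83. For the 7 microglial markers it was 8.12 to 10.27 and 11.46 to 12.26.

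By the smallest root mean square difference from the profile of Rrad over the 8 arrays, each gene centred on its own mean, the nearest of 10397 other tested genes were Pam, Pth2, Gm2694, Gpx3 and Drc1. Pam encodes the enzyme that amidates neuropeptides, Pth2 a neuropeptide that acts on the second parathyroid hormone receptor, Gpx3 a secreted glutathione peroxidase, and Drc1 a component of motile cilia. Their distances from Rrad were between 0.31 and 0.40 on the log2 scale, where the median gene was at 2.42. Pam, Pth2 and Gm2694 were under the minimum on all 4 unbound arrays, so that their distances rest in part on values with no measured level. Gpx3 and Drc1 were above it on all 8 arrays, with distances of 0.39 and 0.40, and differed between fractions by 3.33 and 3.12 on the log2 scale. The measure follows the step between the fractions that selected Rrad, and it is given as a description.

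**Figure D3:**
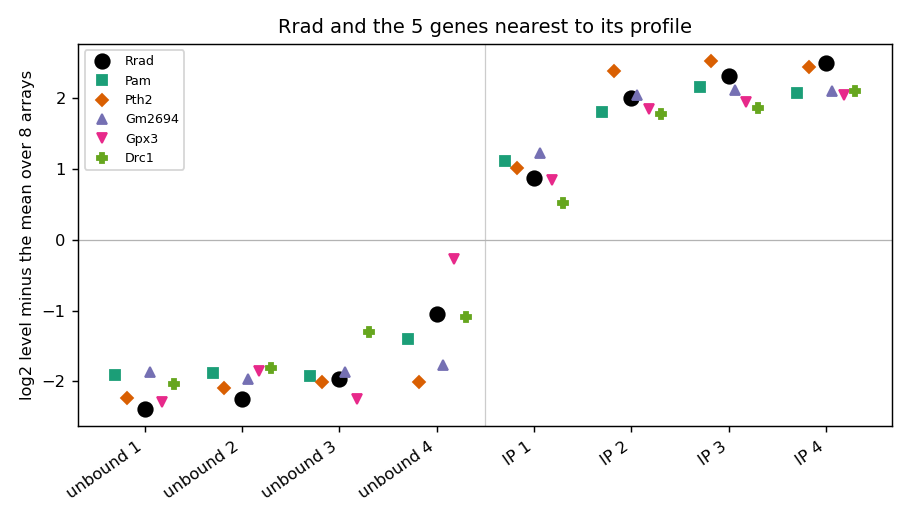
Log2 level of Rrad (large black circles) and of the 5 genes nearest to its profile, each minus its own mean over the 8 arrays (vertical axis), for each array (horizontal axis, unbound left of the vertical line and immunoprecipitate right of it). The profiles step up between the fractions, and the immunoprecipitate of replicate 1 is the lowest of the 4 for each of the 6 genes.

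Calcium channel subunits had a lower median difference than all genes. The list holds subunits of the high-voltage-activated channels on which RGK proteins act. It also holds 2 tested pores of low-voltage-activated channels, neither of them called. Of 18 listed calcium channel subunit genes 14 were tested, of which 8 were called lower and 0 higher, with a median log2 difference of -1.17. Over all 10398 tested genes 44.2% were called lower and 4.74% higher, with a median of -0.85. The size of this gap varied with the processing. The list median was -0.17 against -0.04 after quantile normalization and -1.01 against -0.86 with probe sets averaged by gene. It was -0.36 against -0.03 with median centring and -1.01 against -0.30 with no filter. With median centring 4 were lower and 1 higher, after quantile normalization also 4 and 1, and on the poly-A controls all 14 were lower.

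Pore subunits carry the current. Of 5 tested pore subunits of high-voltage-activated channels 4 were called lower and 0 higher (median -1.68). Cacna1c, an L-type pore, was 5.14-fold lower (log2 difference -2.36 ± 0.31 SE, limma adjusted p = 0.00014), and Cacna1d, another L-type pore, at least 4.07-fold lower, since 1 immunoprecipitate array of 4 was above the minimum. Cacna1e, the R-type pore, was 3.20-fold lower (limma adjusted p = 0.0084) and Cacna1b, the N-type pore, 2.27-fold lower (limma adjusted p = 0.025). Both missed 2-fold with median centring, at -0.87 and -0.37, and after quantile normalization, at -0.77 and -0.36. Without the immunoprecipitate of replicate 4 Cacna1b gave -0.70 (limma adjusted p = 0.075), and without the unbound fraction of replicate 1 or 2 it kept its size but not its call, with limma adjusted p of 0.065 and 0.058. Cacna1a, the P/Q-type pore, differed by -0.57 and was not called (limma adjusted p = 0.13). Cacna1f and Cacna1s did not pass the filter.

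The beta subunits, the sites to which RGK proteins bind, went apart. Cacnb4 had log2 levels of 10.79, 9.32, 9.66 and 8.42 on the immunoprecipitate arrays of replicates 1 to 4, and between 11.75 and 12.30 on the unbound arrays. It was 6.06-fold lower in the immunoprecipitate (log2 difference -2.60 ± 0.42 SE, limma adjusted p = 0.00043), and all 3 of its tested probe sets were called lower. Cacnb2 differed by -0.03 ± 0.31 (SE, limma adjusted p = 0.94) and Cacnb1 by 0.60 ± 0.41 (SE, limma adjusted p = 0.22), neither of them called. Cacnb1 was called higher with median centring, at 1.41 (limma adjusted p = 0.015), and after quantile normalization, at 1.53 (limma adjusted p = 0.010), and called lower on the poly-A controls, at -1.37 (limma adjusted p = 0.0077), so that no direction is settled for it. The sign for Cacnb2 turned with median centring and quantile normalization, at 0.78 and 0.84, and when any of 4 single arrays was left out, at 0.0052 to 0.28. Cacnb3 was not analysed here.

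The alpha2delta subunits, which help to place the channels at the membrane, were lower for 3 of 4 tested genes (median -1.29). Cacna2d2 was 3.54-fold lower (log2 difference -1.82 ± 0.35 SE, limma adjusted p = 0.0013), Cacna2d4 at least 1.22-fold with all immunoprecipitate arrays under the minimum, and Cacna2d1 2.22-fold (limma adjusted p = 0.025). Of 3 tested Cacna2d1 probe sets 1 was called lower and another higher, by 2.42 on the log2 scale, so no direction is settled for this gene. The calls of Cacna2d1 and Cacna2d4 were lost with median centring and quantile normalization, at -0.34 and -0.53 for the first and -0.62 and 0.03 for the second. Cacna2d1 also missed its call without the immunoprecipitate of replicate 2 or 3, or the unbound fraction of replicate 1 or 4, at -0.91, -1.14, -0.81 and -0.87. Cacna2d3 differed by -0.06 and was not called (limma adjusted p = 0.84). Of the low-voltage-activated pores, which RGK proteins are not known to inhibit, Cacna1g and Cacna1h differed by -0.36 and -0.87 and were not called (limma adjusted p = 0.20 and 0.18), but Cacna1h was called lower without the unbound fraction of replicate 1, at -1.22.

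Of 20 listed binding partners 13 were tested, with 4 lower, 1 higher and a median log2 difference of -0.38. Over all genes the median was -0.85, with 44.2% lower and 4.74% higher. The list median also lay above that of all genes with median centring, at 0.43 against -0.03. It lay below that of all genes after quantile normalization, at -0.41 against -0.04, and with no filter, at -0.62 against -0.30. With probe sets averaged by gene it was -0.96 against -0.86, so its place beside all genes is not settled. Rock1, a kinase of the cytoskeleton that Gem binds, was 9.03-fold lower (log2 difference -3.18 ± 0.42 SE, limma adjusted p = 0.00013), as were all 3 of its tested probe sets. Of the Camk2 kinase subunits, Camk2a, on 3 of 4 immunoprecipitate arrays above the minimum, was at least 5.13-fold lower, Camk2g 4.49-fold and Camk2b 3.09-fold. Camk2b missed 2-fold with median centring, at -0.82, and after quantile normalization, at -0.97. Camk2d differed by -0.18 and was not called.

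The 14-3-3 genes were bright in both fractions. All 6 that were tested, Ywhab, Ywhae, Ywhag, Ywhah, Ywhaq and Ywhaz, had log2 differences between -0.32 and -0.99 and were not called. Relative to the median gene 5 of them were higher, and with median centring 5 had a positive difference, at 0.12 to 0.49, with Ywhaz at -0.18. After quantile normalization all 6 were lower by less than 2-fold, and on the poly-A controls from -2.29 to -2.95. The gene called higher, named after its value was seen, was Nme1, a nucleoside diphosphate kinase reported to interact with Rrad, at 2.44-fold (log2 difference 1.29 ± 0.12 SE, limma adjusted p = 2.0e-05). Its second probe set was called lower, by -4.35 on the log2 scale, and Nme1 gave -0.68 on the poly-A controls, so that no direction is settled. Sfn, Gmip and Kif9 did not pass the filter, and the other 4 listed partners were not analysed here.

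**Figure D4:**
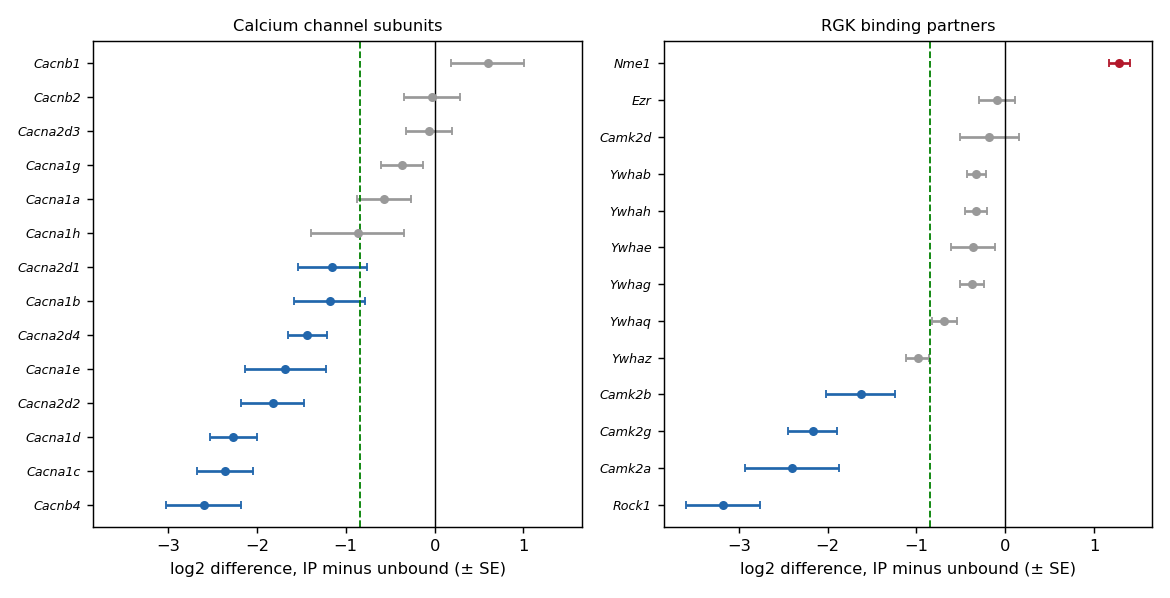
Log2 difference, immunoprecipitate minus unbound, for the tested calcium channel subunits (left) and RGK binding partners (right), as points with the SE of the fit; blue is called lower, red called higher and grey not called, and the dashed line is the median gene at -0.85. Cacnb4 and Rock1 lie lowest in their panels at -2.60 and -3.18, while Cacnb1, Cacnb2 and Cacna2d3 lie at 0.60, -0.03 and -0.06.

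Among Ras-type GTPases Rrad had the most positive difference. Of 32 listed names 25 genes were tested, of which 10 were called lower and 0 higher, with a median log2 difference of -0.67, where 44.2% of all genes were lower and their median was -0.85. The highest of them was Rala, at 0.78 ± 0.36 (SE, limma adjusted p = 0.086), against 3.83 for Rrad. No test of this gap is given, since Rrad was chosen for its value. Rasd2, a striatal GTPase, fell 4.73-fold (limma adjusted p = 0.00032) and Rras2 3.55-fold (limma adjusted p = 9.7e-05). Rasl11b fell 3.24-fold (limma adjusted p = 0.00028). Nras was 4.23-fold lower by its brightest probe set, but of its 3 tested probe sets 2 were called lower and 1 higher, by 2.44 on the log2 scale. With median centring 3 of the 25 were lower and 2 higher, and after quantile normalization 2 and 1. Of 17865 tested probe sets 4228 were lower and 3150 higher with median centring, and 3715 and 3091 after quantile normalization. The first of these scales ended the call of Rasl11b, at -0.88, and the second those of Rasl11b and Rras2, at -0.89 and -0.74. Without the immunoprecipitate of replicate 2 or the unbound fraction of replicate 1, 1 gene was called higher in place of 0.

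**Figure D5:**
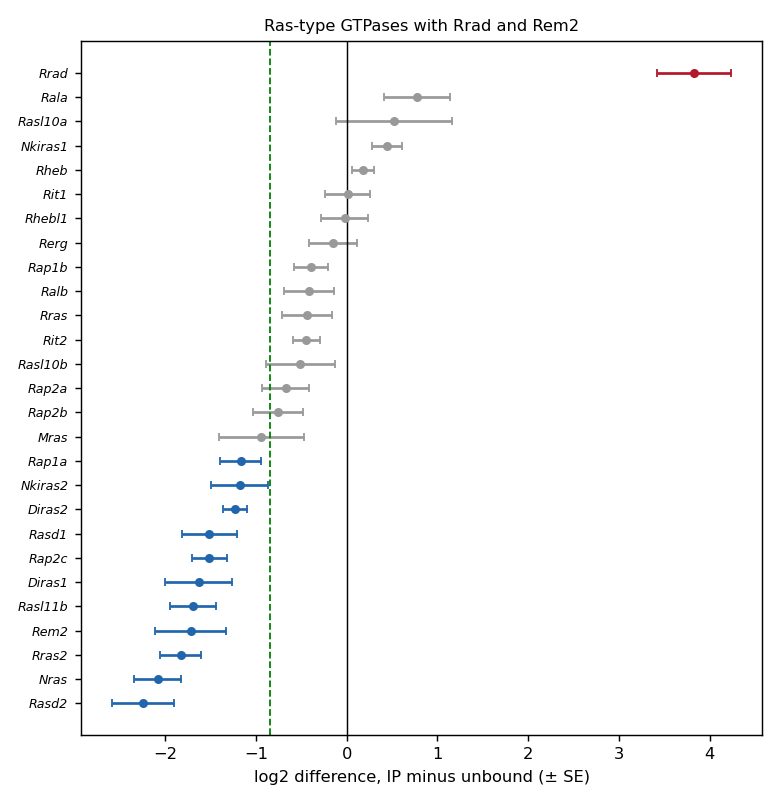
Log2 difference, immunoprecipitate minus unbound, for 25 tested Ras-type GTPases with Rrad and the tested Rem2 probe set, as points with the SE of the fit; blue is called lower, red called higher and grey not called, and the dashed line is the median gene at -0.85. Rrad lies at 3.83, the next gene Rala at 0.78, and Rem2 at -1.72 among the lower ones.

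Rem2 and Gem are inducible genes, so other genes induced by activity were set beside them. Of 16 listed genes 11 were tested, with 6 lower, 1 higher and a median log2 difference of -1.39, where 44.2% of all genes were lower and 4.74% higher. With median centring 4 were lower and 2 higher, with the poly-A controls as the reference 10 and 0, and 4 and 1 after quantile normalization. Of 17865 tested probe sets 4228 were lower and 3150 higher with median centring. These counts were 16823 and 125 on the poly-A controls, and 3715 and 3091 after quantile normalization. Egr2 was at least 4.79-fold lower, Egr3, on 3 of 4 immunoprecipitate arrays above the minimum, at least 8.40-fold, Egr1 7.14-fold (limma adjusted p = 3.4e-05) and Arc at least 5.06-fold. Nr4a3, named after its value was seen, was the 1 called higher, at 2.54-fold (limma adjusted p = 0.0093), but gave -0.62 on the poly-A controls. Fos differed by 0.48 and did not reach 2-fold on the main scale (limma adjusted p = 0.039).

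Rrad is also described as a target of the tumour suppressor p53. Of 15 listed p53 targets 8 were tested, with 3 lower, 0 higher and a median log2 difference of -0.87, near the 44.2% lower and the median of -0.85 over all genes. Ccng1 was 3.48-fold lower (limma adjusted p = 0.00019), Sesn1 2.45-fold (limma adjusted p = 0.00074) and Mdm2 2.13-fold (limma adjusted p = 0.015). Of 2 tested Mdm2 probe sets 1 was called lower and the other differed by 0.33, so no direction is settled for Mdm2. Ccng1 and Sesn1 each had 2 of 3 tested probe sets called lower, with the third at -0.39 and -0.58. With median centring 0 of the 8 were lower and after quantile normalization 1, Ccng1, was. Of 17865 tested probe sets 4228 and 3715 were lower on those scales. Cdkn1a, a cell cycle inhibitor, lay just under 2-fold lower (limma adjusted p = 0.045). Mdm2 missed its call without the immunoprecipitate of replicate 2 or 3, or the unbound fraction of replicate 1 or 4, at -0.95, -0.97, -0.77 and -0.97.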

How the data were processed

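The authors deposited 1 log2 value per probe set and array, normalized with GCRMA per the submitters' processing notes and within each fraction per the design text. 1 constant per fraction was subtracted so that 18 biotinylated hybridisation controls, 0.02 apart as deposited, had equal means. 64 control probe sets were left out. 17865 probe sets at or above 50 on at least 4 arrays went into a fit with limma 3.58.1 under R 4.3.3 (trend, Benjamini-Hochberg adjustment, 2-fold). The fit was also run on simulated data with few changed probe sets, balanced in direction, and no shift between the fractions. That setting differs from these data, where most calls were lower, so it checks the code and not the calls given here. Groups were normalized apart, so differences between them rest on the separate scales of the fractions, which this shift hardly changed. Without the shift Rrad differed by 3.85, and 909 probe sets were called higher and 7940 lower.

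Gene names came from the platform table (34945 probe sets with 1 symbol, 932 with several, 9160 not listed). The probe set with the highest mean stood for a gene. Where the dimmer group lay under 50, its values were raised to 50 and the fold given as at least. For Gem the brighter group lay partly under 50 too, so its fold is not given as a lower bound. The members and lists were chosen with earlier results of these data known. Named were all member probe sets, Hcrt, up to 4 called genes per list with the largest change or else the brightest up to 2, and the 5 genes nearest to Rrad. 1 gene list and single listed genes are not reported here.

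Replicate numbers join the fractions of 1 preparation per the labels. Same-numbered arrays deviated together, with correlations of 0.44, 0.33, 0.25 and 0.59 over the tested probe sets for replicates 1 to 4. The highest correlation of each immunoprecipitate with an unbound array of another number was -0.06, 0.26, 0.24 and -0.10. For replicates 2 and 3 the same-numbered array was only slightly closer, so their pairing rests on the labels. Alternatives were the deposited scale, median centring, quantile normalization, a shift on 24 poly-A controls, no filter, a minimum of 100, no trend, the replicate block, probe sets averaged by gene and the omission of single arrays. The number of arrays limits the precision. Plots used matplotlib 3.10.9 in Python 3.11.15.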

Additional observations from a re-analysis of the deposited data

Results flagged for a closer look

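In 10 of 78 groups of 4 arrays examined, 1 array lay far from the other 3, by a gap over the group's range above Dixon's critical value, and chance flags about 1 in 20 groups. Among the members this was the unbound array of replicate 2 for the brighter Rem2 probe set, at a ratio of 1, where the other 3 arrays held 1 identical value. The immunoprecipitate of replicate 1 was the low array for Pth2 (0.905), Gm2694 (0.92) and Gpx3 (0.841), genes nearest to the profile of Rrad, and the high array for Myl9 (0.942), a myosin light chain gene under the minimum on all immunoprecipitate arrays. The unbound array of replicate 4 was low for Cacnb4 (0.918) and high for Pam (0.90), the latter under the minimum on all unbound arrays. Rasl11b was high in replicate 2 of both fractions, at 0.922 and 0.908 for immunoprecipitate and unbound arrays. Arc was low in the unbound fraction of replicate 1 (0.842).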

How the results depend on the processing

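The 3 alternatives that change the scale between the fractions moved the results most. The differences of Rrad, Gem and the tested Rem2 probe set kept their sign under each alternative run. With median centring Rrad gave 4.64 and Rem2 -0.91, after quantile normalization Rrad 4.82, Gem 3.14 and Rem2 -0.55, and on the poly-A controls Rrad 1.86, Gem 0.087 and Rem2 -3.69. Leaving out single arrays gave 3.66 to 4.10 for Rrad, 1.68 to 2.49 for Gem and -2.04 to -1.40 for Rem2. Over all probe sets 872 were higher and 8059 lower. With median centring these were 3150 and 4228, after quantile normalization 3091 and 3715, on the poly-A controls 125 and 16823, and with no filter 1402 were higher. Calcium channel subunits had 1 higher and 4 lower with median centring and with quantile normalization, and 14 lower on the poly-A controls. Binding partners had 2 higher after quantile normalization, 0 higher and 12 lower on the poly-A controls, and 0 higher with probe sets averaged by gene, where the 2 Nme1 probe sets oppose each other. The replicate block called 931 higher and 8192 lower over all probe sets, and left the differences of the members as they were. Signal near the minimum limits Gem and the dimmer Rem2 probe set.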
